A study of Mus musculus with 8 samples.

Results

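Ribosome loading was described in MII oocytes of old mice, as the level of each mRNA in the ribosome-bound fraction set against its level in total RNA from the same cells. The genes described were all those present in both the HA table (ribosome-bound RNA) and the input table (total RNA), 8537 of the 10891 genes in either table, in the 4 old libraries of the 8 in the series. The females were C57BL/6 mice of 12 to 15 months with the genotype RiboTagF/F;Zp3-Cre, in which the Zp3 promoter drives Cre in the growing oocyte and Cre switches the ribosomal protein gene Rpl22 to a form with an HA tag. They received 5 IU of PMSG and, 48 h later, 10 IU of hCG, and the oocytes were collected 13 h after hCG. Each old group held 2 replicates, here called pool 1 and pool 2, of 200 oocytes pooled over animals. From each pool, 10% of the lysate became the input library and the HA immunoprecipitate of the remainder became the HA library. The young groups, used only where named, were 2 such pools from mice of 1 month with the same genotype and treatment. No library from oocytes without the tag is among the labels, so RNA that sticks to the beads was not measured here.

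Fully grown oocytes stop transcription and live on stored mRNA, and which of these mRNAs are translated is set by loading them on or off ribosomes. During maturation, cytoplasmic polyadenylation through the cytoplasmic polyadenylation element (CPE) of the 3'-UTR turns on messages such as that of cyclin B1, whereas many messages for housekeeping proteins lose their poly(A) tail and leave the ribosomes. The mature egg is arrested at metaphase of the second meiotic division (MII) by regulators of M-phase, such as Mos and Fbxo43 (Emi2). Ribosomes inside mitochondria carry their own proteins and lack Rpl22, so RNA of the mitochondrial genome is not a target of the tag.

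The translation efficiency (TE) of a gene in a pool was taken as log2 of (HA CPM + 1) over (input CPM + 1), minus the median of all 8537 genes in that pool, so that 0 is the median gene. CPM are reads on a gene scaled to library size. Before centring the median log2 ratio was -0.43 and -0.60 in the old pools and -0.41 and -0.43 in the young pools. HA and input were scaled separately, so a TE gives the place of an mRNA among the others and not the share of its copies on ribosomes, and with the pseudocount of 1 CPM it understates the ratio of low genes. The old HA libraries held 46950706 and 37817382 reads on genes and the old input libraries 56802470 and 54464796. All 12 oocyte markers were in both tables, with summed levels of 12690.2 and 18816 CPM in HA and 9846 and 9569 CPM in input. Of 24 markers of cumulus and granulosa cells, 13 were in the input table and 7 in both tables. Those 7 had summed levels of 146 and 106 CPM in HA and 151 and 406 CPM in input. Amh, Lhcgr and Foxl2 were in neither table. None of 13 markers of blood, immune and oviduct cells was in both tables. However, 2 of them were in the input table alone, each with a mean input of at least 10 CPM in old oocytes.

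The old pools gave the same order of loading mainly for abundant mRNAs. Over all 8537 genes, Spearman's rho of TE between pool 1 and pool 2 was 0.205. It was 0.0829 for the 2332 genes with a mean of less than 10 CPM over the 4 old libraries, 0.142 for the 2073 genes of 30 to 100 CPM and 0.579 for the 802 genes of at least 300 CPM. In the young pools, over the same sets of genes, rho was 0.276, 0.0966, 0.302 and 0.737. These correlations run across genes that share libraries and are descriptions. In old oocytes, 1603 genes had 3 or fewer reads in at least 1 of the 4 libraries, of which 1289 had a mean of less than 10 CPM and none a mean of at least 100 CPM. Such a floor covers counting error only, since the reads carry no molecular identifiers. The SD of TE over all genes was 1.96 and 2.24 in the old pools and 1.06 and 1.39 in the young pools. A TE of a rare mRNA therefore says little about its loading, and the abundant mRNAs lead the account.

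**Figure D1:**
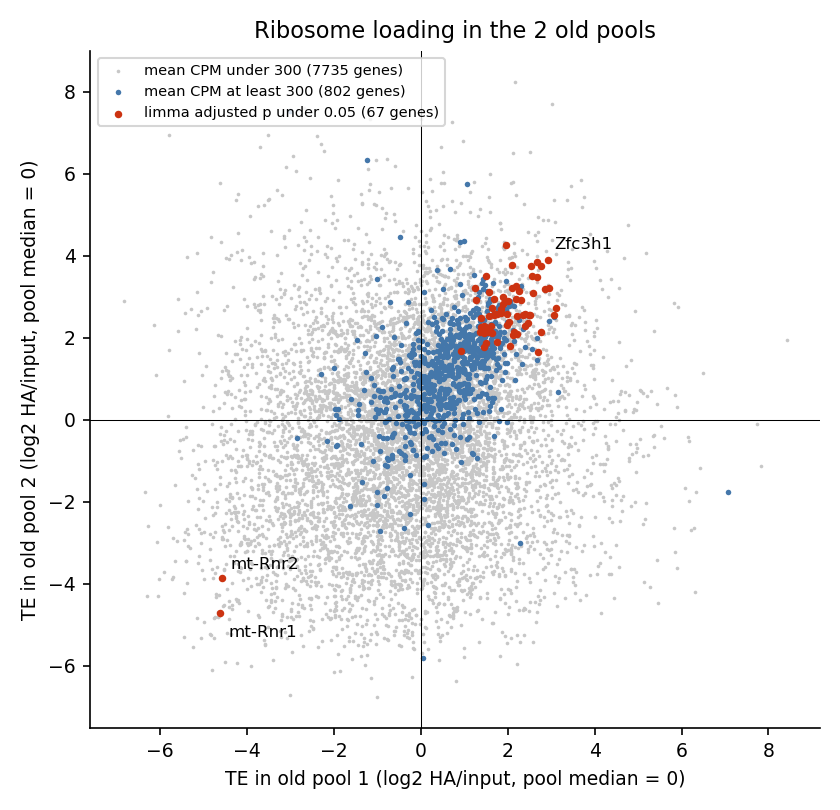
TE (log2 HA over input, median gene of the pool at 0) of each of the 8537 genes in old pool 1 (x axis) and old pool 2 (y axis), with each point a gene, blue for the 802 genes whose mean reached 300 CPM and red for the 67 genes past limma's threshold. The gray cloud of rarer genes has no clear slope (rho 0.205 over all genes), the blue points lie along the diagonal and mostly above 0, and mt-Rnr1 and mt-Rnr2 stand alone among the red points at the lower left.

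Abundant mRNAs also sat higher on the scale. The median TE was 0.73 and 1.30 in the old pools for the genes of at least 300 CPM, 0.46 and 0.76 for the 1315 genes of 100 to 300 CPM, 0.05 in both for those of 30 to 100 CPM, -0.47 and -1.05 for those of 10 to 30 CPM, and -0.57 and -0.68 for those under 10 CPM. In the young pools the genes of at least 300 CPM had medians of 0.37 and 0.27, a smaller step. The mean CPM that sorts the genes includes the HA level, so part of this slope is built into the sorting. For that reason most groups below also have a value centred within 10 groups of like mean CPM, called the abundance-matched TE.

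**Figure D2:**
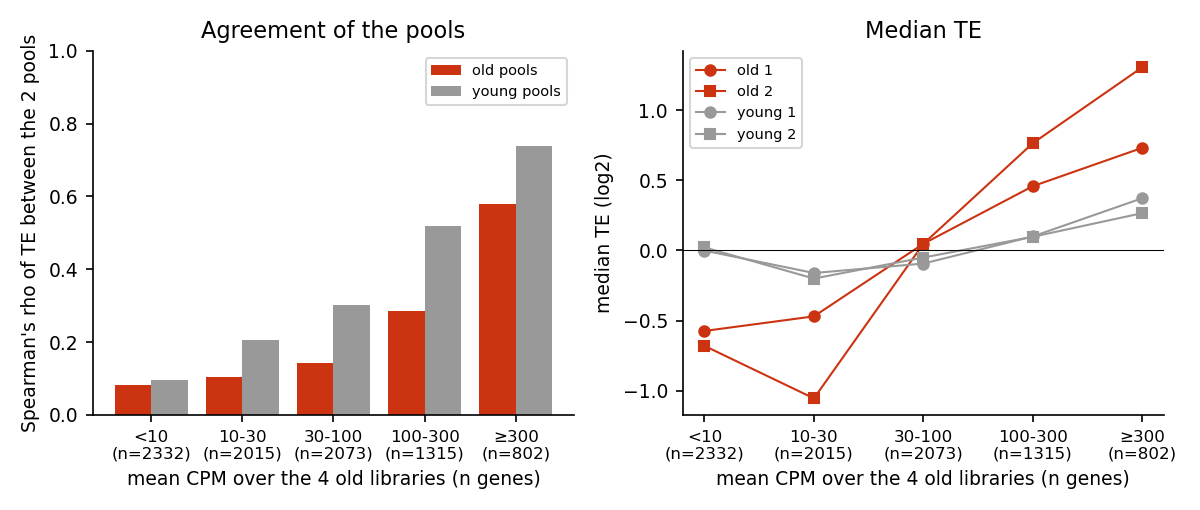
Left, Spearman's rho of TE between the 2 pools of an age in 5 classes of mean CPM over the old libraries, with bars for old (red) and young (gray) pools, and right, the median TE (log2) of each class in each pool. In both ages rho is highest for genes of at least 300 CPM (0.579 old, 0.737 young), and the old medians lie below 0 under 30 CPM and reach 0.73 and 1.30 at 300 CPM and above.

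Which mRNAs differed from the median gene beyond the spread of the pools was asked with limma on TE. At a Benjamini-Hochberg adjusted p under 0.05, 65 genes were higher (0.761% of 8537) and 2 were lower (0.0234%), or 0.785% in all. The unadjusted p was under 0.05 for 730 higher and 388 lower genes. Of the 65 higher genes, 63 came from the 802 most abundant and 64 were protein-coding, and their mean TE ran from 1.29 to 3.42, with HA over input from 1.75 to 7.91 in CPM. The split depended on where 0 is set. On the deposited scale without centring it was 8 higher and 3 lower. With abundance-matched TE it was 45 and 72, of which 40 of the higher genes and both lower genes were shared. The smallest limma adjusted p was then 1.2e-226, against 1.48e-06 in the main fit. With 2 pools such a value can rest only on the spread shared among genes, so calls with abundance-matched TE are given as descriptions. The test uses HA and input of a pool as a pair and a spread shared among genes of like abundance. Without the pairing it gave 0 higher genes and 1 lower gene (750 and 505 at an unadjusted p under 0.05), and without the abundance trend 0 and 0 (206 and 619), whereas edgeR's quasi-likelihood test on the recovered reads gave 39 and 2 and DESeq2 gave 218 and 616. Of the edgeR calls, 38 and 2 were also limma calls, and of the DESeq2 calls 32 and 2 were. With 2 pools the smallest two-sided p of an exact sign permutation is 0.5, so single genes were tested through limma's shared spread only.

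The young pools, which had no part in these calls, gave the same side for most of the 65 genes. Among them, 61 had a TE above the median gene in both young pools, and none was below it in both. Of all 802 genes of at least 300 CPM, 54.1% were above it in both young pools and 24.9% below. The median TE of the 65 genes was 1.39 and 1.14 in the young pools, and 1.99 and 2.57 in the old pools from which they were chosen.

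The 2 mitochondrial ribosomal RNAs, which build mitochondrial ribosomes and encode no protein, were the only genes that limma called lower, and edgeR called the same 2. mt-Rnr1 (12S rRNA, chromosome M of GRCm38, 70 to 1024) had 31886 and 44183 CPM in input and 965 and 1111 CPM in HA. Its HA level was thus 0.0303 and 0.0251 times its input level, for a TE of -4.62 and -4.71 (standard error 0.27, limma adjusted p = 1.48e-06). mt-Rnr2 (16S rRNA, 1094 to 2675) had 39236 and 58731 CPM in input and 1223 and 2678 CPM in HA, for a TE of -4.58 and -3.85 (standard error 0.27, limma adjusted p = 2.44e-06). They had the lowest mean TE of the 802 genes of at least 300 CPM, and their HA and input values did not overlap. In the young pools their TE was also below 0, at -3.57 and -1.95 for mt-Rnr1 and at -2.78 and -1.57 for mt-Rnr2.

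The 12 mitochondrial messages in both tables, which encode subunits of the respiratory chain and ATP synthase, had a less uniform loss. All 12 were below the median gene in pool 1, where TE ran from -3.00 to -1.44, while in pool 2 it ran from -0.88 to 0.26 and 6 of the 12 were below. The medians were -1.94 and -0.21, and the median abundance-matched TE was -1.75. mt-Cytb, for cytochrome b, had 8296 and 8981 CPM in input and 854 and 4310 CPM in HA. mt-Co2, for cytochrome oxidase subunit 2, had 91.9 and 104 CPM in input and 7.67 and 36.4 CPM in HA. At the other end, mt-Nd5 and mt-Nd4, for subunits of complex I, had TE of -1.44 and 0.23 and of -1.44 and 0.11. The pools thus differed on these messages by more than on the ribosomal RNAs. No mitochondrial message passed limma's test (3 were lower at an unadjusted p under 0.05) or the tests of edgeR and DESeq2. With abundance-matched TE 6 of the 12 were called lower, as were 72 of all 8537 genes, which is given as a description.

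The heavily loaded abundant mRNAs were looked for by rank, which does not depend on the scaling. Over all genes, 132 (1.55%) were in the top 10% of TE in both old pools and 160 (1.87%) in the bottom 10%. Among the 802 genes of at least 300 CPM, 31 (3.87%) were in the top 10% of that set in both pools and 29 (3.62%) in the bottom 10%. This abundance limit, and with it the 10 leading genes at each end, was chosen after the values were seen. The 31 top genes were all protein-coding, and 28 of them were also above the median gene in both young pools (54.1% of the set).

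The limit is a mean over HA and input, and a gene can reach it through HA alone: 9 of the 10 highest genes, and all but 10 of the 31, had a mean input under 300 CPM. Their place in this set is therefore partly fixed by the limit and is given as a description. With a limit of 300 CPM on input alone, 703 genes remained, of which 50 (7.11%) were among the 65, and rho between the old pools was 0.646. The 10 highest of the 31 were all among the 65. Both sets were chosen on the same TE, so this overlap, and HA above input in these genes, follow from the choice. Arhgap28 (chromosome 17 of GRCm38, 67842713 to 68004120), for a GTPase-activating protein, had 209 and 141 CPM in input and 995 and 1335 CPM in HA, for a TE of 2.67 and 3.84 (standard error 0.53, limma adjusted p = 0.0183). Zc3h7a, for a zinc finger RNA-binding protein, had 211 and 259 CPM in input and 905 and 2286 CPM in HA. Its TE of 2.52 and 3.74 (limma adjusted p = 0.0169) came with 2.07 and 3.13 in the young pools. Copb1, for a subunit of the coatomer of Golgi vesicles, had 186 and 155 CPM in input and 1004 and 927 CPM in HA, with nearly equal TE of 2.85 and 3.18. Ddb1, for a subunit of the CUL4 ubiquitin ligase that oocytes need, had 499 and 451 CPM in input and 2239 and 2523 CPM in HA, for a TE of 2.59 and 3.09 (limma adjusted p = 0.0110). In these 4 genes both HA values were above both input values, and the ratio within a pool ran from 4.30 to 9.47.

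The other 6 had HA above input in both pools as well. Thoc2, of the THO complex of mRNA export, had a TE of 2.55 and 3.51, and Upf1, the helicase of nonsense-mediated decay, of 2.10 and 3.77. Nek1, a kinase of the NIMA family, had 2.95 and 3.20, and Anxa7, an annexin, had 3.11 and 2.71. Dmxl1 had 2.67 and 3.47, and Dlg5, a scaffold of cell junctions, 1.96 and 4.25, the widest gap between the pools. For Thoc2 and Dlg5 the young pools lay near the median gene, at 0.29 and -0.15 and at 0.42 and -0.22, but the test of old against young called neither (limma adjusted p = 0.740 for each).

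**Figure D3:**
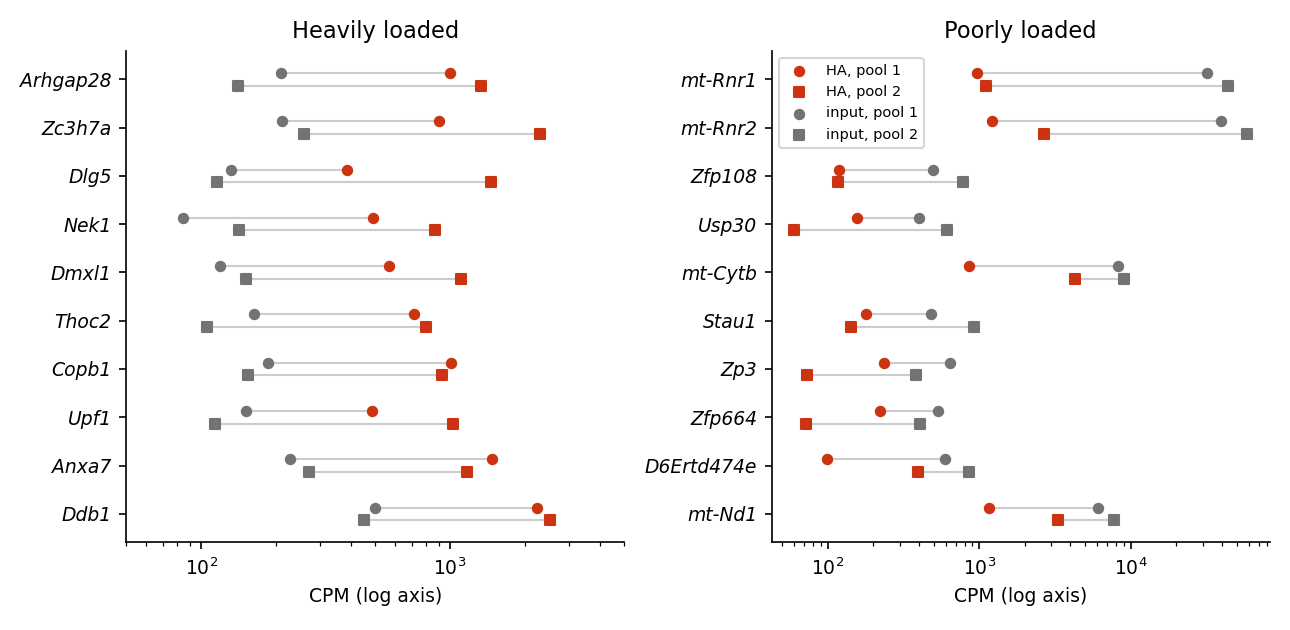
CPM on a log axis of the 10 heavily loaded (left) and 10 poorly loaded (right) genes with a mean of at least 300 CPM, with HA in red and input in gray, circles for old pool 1, squares for old pool 2, and a line joining HA and input of a pool. Red lies right of gray in both pools for each heavily loaded gene, by 2.91-fold (Dlg5, pool 1) or more, and left of it for each poorly loaded gene, with the longest lines for mt-Rnr1 and mt-Rnr2.

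Sequence features of the loaded mRNAs were read on the annotated transcript with the longest coding sequence. The motifs TTTTAT and TTTTAAT, the usual form of the CPE, were searched on the sense strand in the last 100 bases of the 3'-UTR. Of the 768 nuclear protein-coding genes of at least 300 CPM with an annotated 3'-UTR (783 in the set), 202 (26.3%) held one. Sorted by mean TE in old oocytes into 5 equal groups, the share rose from 19.5% in the lowest (30 of 154 genes) through 20.8%, 26.6% and 30.1% to 34.6% in the highest (53 of 153). Sorted by mean TE in young oocytes it ran from 14.9% to 32.7%. Over the 5853 such genes of at least 10 CPM it ran from 16.8% to 28.3% by old TE, with 22.3% in all. A motif anywhere in the 3'-UTR did not rise steadily over the 5 groups of at least 300 CPM by old TE. Its shares were 69.5%, 79.9%, 83.1%, 80.4% and 78.4%, highest in the middle group. The median of the mean CPM rose from 445 in the lowest to 633 in the highest of these groups. The median 3'-UTR length in these 5 groups was 1438, 1492, 1634, 1253 and 1021 bases, shortest in the highest group. Over the genes of at least 10 CPM it was 976 bases in the lowest and 1116 bases in the highest group, so length did not run with TE in the same way in both sets. These are descriptions over genes, with no test, and a match is not a site of binding.

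**Figure D4:**
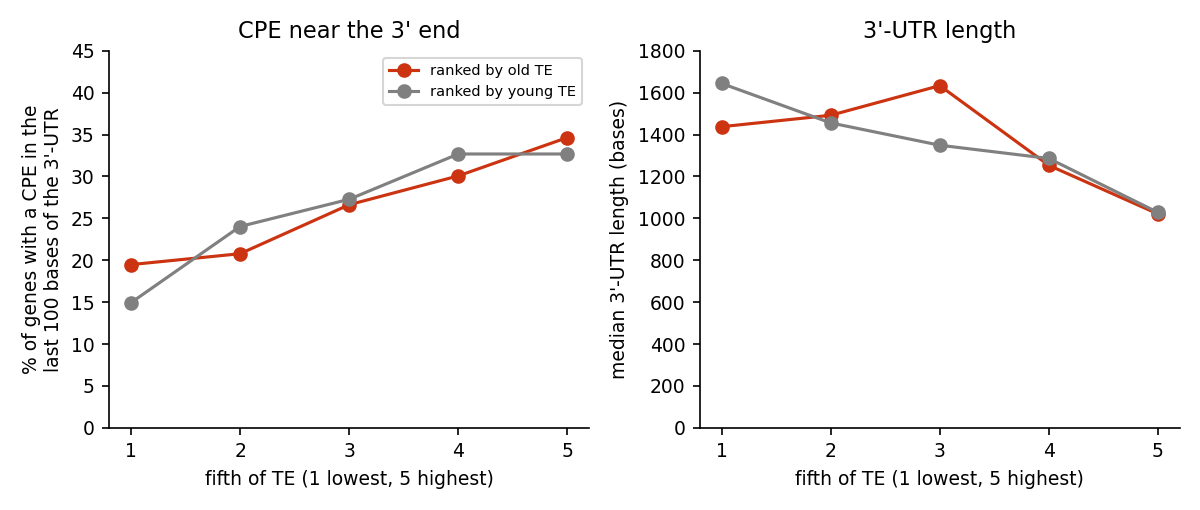
Left, percent of genes with a CPE motif in the last 100 bases of the 3'-UTR, and right, median 3'-UTR length in bases, in 5 equal groups by mean TE (1 lowest, 5 highest) for the 768 nuclear protein-coding genes of at least 300 CPM. Red points are sorted by old TE and gray points by young TE. By old TE the motif share rises from 19.5% to 34.6%, while the length is 1438 bases in group 1, 1634 in group 3 and 1021 in group 5.

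Of the top genes of at least 300 CPM with a 3'-UTR, 8 of 30 (26.7%) held the motif there, close to the 26.3% of the whole set, and of the bottom genes 3 of 21 (14.3%). Bub1b, Copb1 and Thoc2 among the heavily loaded genes and Zfp664 and Camsap2 among the poorly loaded ones are shown as examples from either end. Each line gives 30 bases of the 3'-UTR in GENCODE M21, 5' to 3' on the transcript strand, with the motif in capitals and GRCm38 coordinates.
Bub1b (chr2:118641554-118641583, plus strand): ttcactgtgtaTTTTATaataaaatagttt
Copb1 (chr7:114215568-114215597, minus strand): catttttgttaTTTTATaaataaattactt
Thoc2 (chrX:41795043-41795072, minus strand): ttaagagaattTTTTATctactgaattcta
Zfp664 (chr5:124888520-124888549, plus strand): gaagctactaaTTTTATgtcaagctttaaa
Camsap2 (chr1:136268132-136268161, minus strand): acctaagtaatTTTTAATattaaattatgc
In Bub1b and Copb1 the motif began 27 and 28 bases before the annotated end, in Thoc2 71, in Zfp664 100 and in Camsap2 28. Ccnb1 and Tpx2 held 4 and 2 such motifs in their 3'-UTR but none in the last 100 bases.

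The mRNAs with the most reads on ribosomes were loaded well but not extremely. Zbed3 (chromosome 13, 95323612 to 95337841), for a component of the subcortical maternal complex, took 75186 and 93369.7 CPM in HA and 35739.9 and 39139.9 CPM in input. Its TE of 1.50 and 1.86 was the best supported among the higher genes (standard error 0.19, limma adjusted p = 0.00147). Gm1965, annotated as a long intergenic noncoding RNA, came next in HA with 12479 and 18352 CPM, against 8868 and 8765 CPM in input, and a TE of 0.92 and 1.67 (limma adjusted p = 0.0391). Atxn2l and Dcp1a, for an ataxin-2-like RNA-binding protein and a decapping activator, had TE of 1.63 and 2.12 and of 1.47 and 2.26, past the threshold with adjusted p of 0.0110 and 0.0183 from limma. Mtus1, for a microtubule-associated protein, had 0.61 and 1.70 (limma adjusted p = 0.128).

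Among the 65 higher genes, 7 that act in spindles or cytokinesis were picked out after their values were seen and stand here as single genes, not as a group shown to be loaded. They were Bub1b, Cenpe (a kinetochore kinesin), Ckap5 and Map4 (microtubule-associated proteins), Kif20b and Kif23 (kinesins of cytokinesis) and Anln (anillin). Ckap5 had 311 and 306 CPM in input and 1305 and 1183 CPM in HA, for a TE of 2.49 and 2.55. Anln had 2.76 and 2.14, Cenpe 1.56 and 3.11, Kif23 1.56 and 2.14, Kif20b 1.98 and 2.31, and Map4 1.56 and 2.53. For all 7 the TE was above the median gene in both young pools too, as for 61 of the 65. The list of 49 kinesin, dynein and tubulin genes as a whole lay at the median gene, with 15 above it in both old pools, 14 below and medians of 0.22 and -0.03.

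Regulators of M-phase, which include the kinases and checkpoint proteins of the arrested spindle, lay mostly above the median gene. Of 36 such genes in both tables, 21 (58.3%) were above the median gene in both old pools and 4 (11.1%) below, against 29.3% and 29.4% of all genes. Their median TE was 0.77 and 0.99, with 0.16 and 0.65 in the young pools. With abundance-matched TE the median was 0.22, with 15 above in both pools and 6 below. Limma called 1 of the 36 higher, or 2.78%, against 1.05% of all genes of at least 10 CPM and 7.86% of those of at least 300 CPM. Bub1b (chromosome 2, 118598211 to 118641591), for the spindle checkpoint kinase BubR1, had 1613 and 1233 CPM in input and 5957 and 6107 CPM in HA, for a TE of 2.31 and 2.91 (standard error 0.33, limma adjusted p = 0.00446). Its HA values were close between the pools and far from the input values.

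Next among the M-phase genes were Tpx2, for the activator of Aurora A on the spindle, and Ccnb1, for cyclin B1 of the M-phase kinase. Tpx2 had 150 and 276 CPM in input and 575 and 843 CPM in HA, for a TE of 2.36 and 2.21 (limma adjusted p = 0.0730). Ccnb1 had 310 and 345 CPM in input and 912 and 1194 CPM in HA, for a TE of 1.98 and 2.39 (limma adjusted p = 0.0564). Both missed the threshold, with HA above input in both pools. The second B-type cyclin, Ccnb2, lay elsewhere, with 189 and 85.7 CPM in input and 94.7 and 124 CPM in HA, and a TE of -0.56 and 1.13. Mad2l1, of the spindle checkpoint, had 1.62 and 2.34, Espl1 (separase) 2.24 and 1.46, and Mos, the kinase upstream of the arrest, 1.99 and 1.17.

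At the low end of the list, Fzr1, the activator of the anaphase-promoting complex that keeps prophase, had 22.7 and 108 CPM in input and 6.30 and 0.148 CPM in HA. Aurkb had 19.4 and 16.2 CPM in input and 3.30 and 1.63 CPM in HA, for a TE of -1.82 and -2.11. Cdk1 itself was rare in these libraries, at 11.8 and 11.1 CPM in input and 0.855 and 0.444 CPM in HA. None of these 3 passed limma's test, with standard errors of 1.78, 1.68 and 1.47.

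The messages of the subcortical maternal complex and of oocyte multigene families were compared with the median gene and with abundant genes, of which 71.4% (573 of the 802 of at least 300 CPM) were above the median gene in both old pools. Of 7 members of the complex, which early embryos need, 5 (71.4%) were above it in both old pools and 0 below, the share of abundant genes. Their median TE was 0.77 and 1.73, and 0.25 with abundance-matched TE. Limma called Zbed3 alone (14.3% of the 7), against 7.86% of all genes of at least 300 CPM. Nlrp5 (Mater) had 842 and 899.99 CPM in input and 1747 and 2383 CPM in HA, for a TE of 1.48 and 2.01 (limma adjusted p = 0.0616), and Nlrp2 had 1.63 and 1.73. Ooep and Tle6, for 2 core members, were lower, with TE of 0.28 and -0.48 and of 0.53 and -0.49. Of 22 genes of the Obox, Oog, Tcl1, Nlrp4 and Nlrp9 families, 15 (68.2%) were above the median gene in both pools and 2 below, with medians of 0.69 and 1.47 and an abundance-matched median of 0.60. Limma called Nlrp9a (4.55% of the 22), at 1.70 and 2.58. These genes are close paralogs between which counting could have split reads, so single values are uncertain.

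Proteins of the egg coat and oocyte-secreted factors divided. Gdf9, the growth factor that oocytes send to cumulus cells, had 3010 and 3264 CPM in input and 5728 and 9442 CPM in HA, for a TE of 1.35 and 2.14 (standard error 0.31, limma adjusted p = 0.0230). Its partner Bmp15 had 2018 and 2013 CPM in input and 2009 and 3168 CPM in HA, for a TE of 0.42 and 1.26. Of the zona pellucida genes, whose proteins form the coat during growth, Zp1 and Zp3 had low TE at high input levels and Zp2 did not. Zp3, for the sperm-binding zona protein, had 640.3 and 383 CPM in input and 236 and 73.1 CPM in HA, for a TE of -1.01 and -1.77. Zp1 had 976 and 853 CPM in input and 279 and 374 CPM in HA, for a TE of -1.38 and -0.58, and Zp2 -0.60 and 0.60. Zp1 and Zp3 thus had HA below input in both pools, and neither passed limma's test (adjusted p = 0.412 and 0.368). Both were called lower with abundance-matched TE, which is given as a description. Astl, for the protease that hardens the coat after fertilisation, and Kit, a receptor, were high in pool 2 (3.46 and 3.18) and less so in pool 1 (0.83 and 0.50). Over the 13 genes of this list the medians were 0.42 and 0.60, and -0.17 with abundance-matched TE.

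Machinery of mRNA turnover and storage was spread over the whole range. Of 21 genes of deadenylation and decay, 10 of them of at least 300 CPM, limma called 2 higher (9.52%). It called 0.761% of all genes higher and 7.86% of those of at least 300 CPM. The 2 were Dcp1a and Xrn2. Xrn2, a nuclear 5'-to-3' exonuclease, had 138 and 160 CPM in input and 868 and 614 CPM in HA. Btg4, the adaptor that triggers maternal mRNA decay, was near the median gene at 0.65 and 0.31, and Cnot10 was low at -3.39 and -3.44. The list's medians were 0.65 and 0.39. With abundance-matched TE they were 0.03 and -0.54, or -0.33 for the mean of the pools. Of 22 genes of mRNA storage and cytoplasmic polyadenylation, 9 were above the median gene in both pools and 9 below, and the medians were -0.02 and 0.02. With abundance-matched TE, 4 were above and 10 below, with a median of -0.37. Dazl, for an RNA-binding protein that activates translation, had 607 and 514 CPM in input and 981 and 1073 CPM in HA. Cpeb1, for the protein that binds the CPE, lay at the median gene with TE of -0.04 and -0.05. Ybx2, for a protein that packs stored mRNA, had 189.6 and 214 CPM in input and 34.7 and 28.9 CPM in HA, for a TE of -1.99 and -2.24. Cpsf3, of the cleavage and polyadenylation complex, had 34.8 and 35.3 CPM in input and 0.428 and 0.850 CPM in HA.

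The genes the study followed up further filled the remaining range. Thumpd1 was heavily loaded, with 69.5 and 77.8 CPM in input, 319 and 307 CPM in HA and a TE of 2.61 and 2.57. Golph3, for a Golgi phosphoprotein, had 424 and 373 CPM in input and 92.8 and 38.8 CPM in HA, for a TE of -1.75 and -2.63. Il7 lay near the middle at 0.67 and -0.11. Among the reference genes, Eif4a1 had 2.24 and 2.44, Dppa3 0.72 and 1.99 and Actb -0.27 and 1.63, and Rpl19 was not in both tables. Rpl22, the gene that carries the tag, was rare, with 17.9 and 8.16 CPM in input and 13.3 and 7.13 CPM in HA and a TE of 0.02 and 0.43. None of these passed limma's threshold, but Golph3 was called lower with abundance-matched TE, which is given as a description.

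Messages for ribosomal proteins were rare in both fractions and tended to the lower side. Of 65 cytosolic ribosomal protein genes in the input table, 33 (50.8%) were not in the HA table, against 18.9% of all input genes, but all 11 whose input reached 10 CPM in the mean were in it. Of the 32 in both tables, 4 were above the median gene in both pools and 13 below, and the medians were -0.35 and -1.46. With abundance-matched TE the medians were 0.33 and -0.65, or 0.13 for the mean of the pools. Limma called 0 of 32, with 1 on each side at an unadjusted p under 0.05, edgeR called 0, and DESeq2 called 1 higher and 2 lower. Rpl5 had 20.8 and 12.3 CPM in input and 11.3 and 0.739 CPM in HA. Rps7 and Rps15 were high in HA of pool 1 alone, at 161 and 42.0 CPM against 0.0739 and 0.0370 CPM in pool 2. Ribosomal protein genes have many processed copies, so their counts are uncertain. Mitochondrial ribosomal proteins (43 genes) had medians of -0.54 and -1.21, with 6 above in both pools and 17 below. With abundance-matched TE the medians were 0.06 and -0.76, or -0.47 for the mean of the pools. Mrpl3 was near the median gene at 0.48 and 1.07, and Mrpl35 had 50.1 and 46.6 CPM in input and 17.4 and 217 CPM in HA.

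Some lists of the housekeeping machinery held 1 or 2 limma calls, and others none. The calls were 1.92% of chaperones, 4% of synthetases, 3.23% of nucleoporins and transport receptors and 4.08% of kinesins, dyneins and tubulins. Over all genes 0.761% were called higher, and 7.86% of those of at least 300 CPM. Of 52 chaperone genes limma called Hsp90ab1, the constitutive cytosolic Hsp90, with 229 and 242 CPM in input and 782 and 1233 CPM in HA (adjusted p = 0.0385), and the list's medians were 0.05 and 0.27. Of 25 aminoacyl-tRNA synthetases it called Lars2, the mitochondrial leucyl-tRNA synthetase, at 1.89 and 3.00, in a list with medians of -0.38 and -0.61. Of 31 nucleoporins and transport receptors it called Nup98, at 1.28 and 2.92, and 17 members (54.8%) were above the median gene in both pools, with medians of 0.38 and 0.99 and an abundance-matched median of 0.15. Nup205, of the inner pore ring, had 45.4 and 43.9 CPM in input and 328 and 208 CPM in HA. Of the 49 kinesin, dynein and tubulin genes it called Kif20b and Kif23. The 13 lists of at least 7 members without a call, several of them described above, had 659 entries. They held 0 limma calls, with 51 entries higher and 34 lower before adjustment, and 0 edgeR calls. DESeq2 called 16 of the entries higher and 50 lower, against 218 and 616 of all 8537 genes. Among the members of these lists, Eif2a had 27.5 and 8.35 CPM in input and 314 and 141 CPM in HA. Its TE was 3.89 and 4.53 (limma adjusted p = 0.0757). Prpf39, a splicing factor, had 4.03 and 3.71. Eif3i, of the initiation factor eIF3, had 1.95 and 3.31. Among proteasome subunits, Psma2 had 1.96 and 2.66 and the ATPases Psmc2 and Psmc5 had -4.51 and -5.90 and -3.63 and -4.09. Tubb6, a beta-tubulin, had 312 and 299 CPM in input and 114 and 5.80 CPM in HA, while Tuba1c, an alpha-tubulin, had 25.4 and 32.0 CPM in input and 111 and 186 CPM in HA. H1foo, the oocyte linker histone, was abundant in both fractions, with 1830.3 and 1883 CPM in input and 2466 and 2865 CPM in HA. Dnmt3a, a DNA methyltransferase of the growing oocyte, lay near the median gene at 0.20 and 0.10, and Trim28, a corepressor that keeps imprints, at 1.14 and 3.04. None of the genes named here beside the calls passed limma's threshold.

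**Figure D5:**
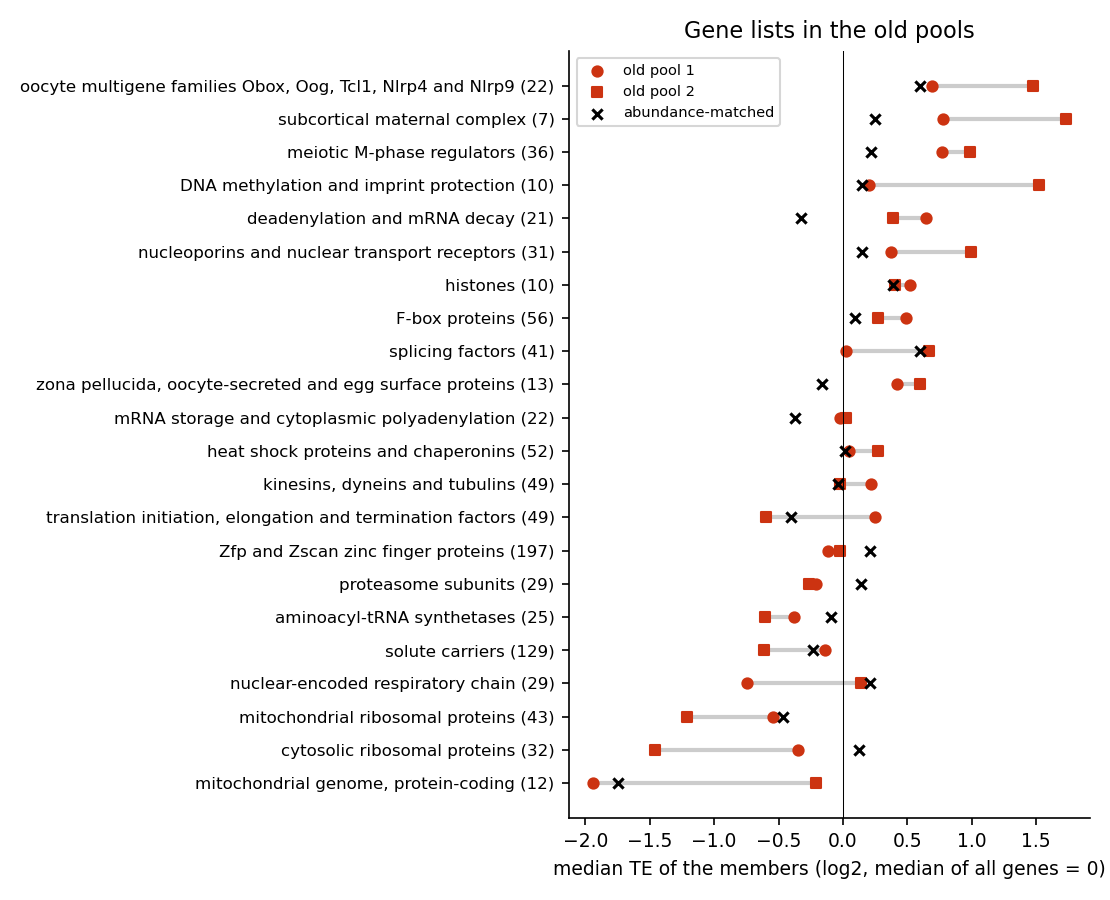
Median TE (log2) of the members of each gene list in old pool 1 (circle) and old pool 2 (square), with the median of the abundance-matched TE as a cross and the number of genes in both tables in brackets. The oocyte families, the subcortical maternal complex and the M-phase regulators are to the right of 0 in both pools, the ribosomal protein lists and the mitochondrial messages to the left, and the cross of the cytosolic ribosomal proteins lies at 0.13.

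The poorly loaded abundant mRNAs of nuclear genes are given by rank. Limma and edgeR called no nuclear gene lower, whereas limma with abundance-matched TE called 64 nuclear genes lower, 42 of them of at least 300 CPM, and DESeq2 called 614 nuclear genes lower, none of them of at least 300 CPM. Of the 29 genes in the bottom 10% in both pools, 5 were mitochondrial. In all, 25 of the 29 were also below the median gene in both young pools (24.9% of the set of 802) and 0 above. Only 11 of the 29 had a mean HA of at least 300 CPM, and the others reached the limit through input alone. Their place in this set is therefore partly fixed by the limit and is given as a description. The leading nuclear genes were Zfp108, Usp30, Stau1, Zp3, Zfp664 and D6Ertd474e. Zfp108 (chromosome 7, 24254794 to 24262445), a zinc finger gene, had 498 and 779.9 CPM in input and 119 and 118 CPM in HA, for a TE of -1.62 and -2.12 (limma adjusted p = 0.208). Stau1, for a double-stranded RNA-binding protein of mRNA transport, had 482 and 919 CPM in input and 178 and 142 CPM in HA, for a TE of -1.01 and -2.08. Usp30, for a deubiquitinase of mitochondria, had -0.94 and -2.72, and Zfp664 -0.86 and -1.86. D6Ertd474e had -2.16 and -0.51. In each of the 6 HA was below input in both pools. With abundance-matched TE limma called all 6 lower, but they had been picked as the lowest by TE, so this is a description.

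Without the limit of 300 CPM, the extremes were mRNAs that nearly vanish from 1 fraction. Among the 6205 genes whose mean reached 10 CPM, 96 (1.55%) were in the top and 134 (2.16%) in the bottom 10% in both pools, of which 2 and 14 were predicted genes. The 10 highest by mean TE (4.34 to 5.36) were Cln3, Rhob, Postn, Gsr, Vwa2, Sfxn5, Armc4, Coq10a, Agrn and Abhd18. All 10 had an input of less than 5 CPM in at least 1 old pool, 3 of the 10 were above the median gene in both young pools, and none passed limma's test (adjusted p from 0.120 to 0.313). Gsr, glutathione reductase, had 3.62 and 0.542 CPM in input and 92.6 and 26.1 CPM in HA in the old pools, but a TE of -1.23 and -0.41 in the young pools. The 10 lowest (-5.45 to -4.99) were Arl14epl, Ube2q1, Dner, Psmc2, Arhgap22, Kremen1, Crb1, Ttll1, Eif2d and Tirap. All 10 had under 2 CPM in HA of both pools, from 3 to 67 reads, against 2077 to 7701 reads in input, and 7 of the 10 were below the median gene in both young pools. Ube2q1, a ubiquitin-conjugating enzyme, had 67.9 and 91.3 CPM in input and 0.356 and 0.296 CPM in HA. None passed limma's test (adjusted p from 0.202 to 0.234).

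By type of transcript, long intergenic noncoding RNA of at least 10 CPM had lower TE than mRNA, described here with no test. The 87 long intergenic noncoding RNAs had a median TE of -0.60 and -1.75, with 44 (50.6%) below the median gene in both old pools and 10 (11.5%) above. The 5947 nuclear protein-coding genes had medians of 0.19 and 0.30, with 25.1% below and 34.9% above. With abundance-matched TE the intergenic RNAs had -0.56 and -1.68, and in the young pools -0.47 and -0.41. The 18 antisense RNAs did not share this, with -0.23 and 0.52, though without strand their reads cannot be told from those of the partner gene. The 65 processed pseudogenes, whose reads could come from their parent genes, had 0.84 and 1.38.

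Some mRNAs of the input table were not in the HA table at all. Of 6630 genes with a mean input of at least 10 CPM in old oocytes, 255 (3.85%) were input-only, including 11 of 108 (10.2%) long intergenic noncoding RNAs. With protein-coding genes in 5 equal groups by coding length, the share fell from 5.75% of the shortest (median 663 bases) to 2.05% of the longest (median 4277 bases), while the median input of these groups rose from 33.7 to 88.3 CPM. Among those with the most input were Sirt2, Neurl4, Osr2 and Lypd6. Sirt2, for a deacetylase, had 124 and 21.2 CPM in the old input libraries, and Neurl4 had 0.937 and 133 CPM. The tables were filtered on low values separately, so absence from the HA table is a low level and not a measured 0.

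Coding length was set against loading in 5 equal groups. Among the genes of at least 300 CPM, with median lengths from 912 to 5897 bases, the median TE from the shortest to the longest group was 0.94, 0.60, 0.67, 0.82 and 0.74 in pool 1 and 1.31, 1.14, 1.33, 1.39 and 1.40 in pool 2. Among the genes of at least 10 CPM it went from 0.14 in the shortest to 0.30 in the longest group in pool 1 and from 0.09 to 0.61 in pool 2. Abundance was not held fixed in these groups. A start of C followed by 4 pyrimidines at the RefSeq transcription start was present in 7 of 50 (14.0%) cytosolic ribosomal protein genes of the input table and in 239 of 7781 (3.07%) input genes that could be matched to a RefSeq start.

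Loading in old oocytes was last set against that in young oocytes. Over the 802 genes of at least 300 CPM, Spearman's rho between the mean TE of the old and of the young pools was 0.733, and over all 8537 genes it was 0.346. The test of the difference called 0 genes in limma (0% of 8537, smallest adjusted p = 0.740), and before adjustment 284 genes were higher and 258 lower in old oocytes. The old-minus-young differences of mt-Rnr1 and mt-Rnr2 were -1.90 and -2.03 on the log2 scale. With pools of the same number treated as blocks across ages, a pairing that the labels do not give, the test called both lower in old oocytes. Without old pool 1 it called 1 gene, Tmem184b.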

How the data were processed

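Ribosome-bound (HA) and total (input) RNA of 2 pools of old and 2 of young MII oocytes was measured by unstranded RNA-seq. Per the methods, cDNA was primed with random hexamers together with chimeric poly(T) primers, in a kit that favours non-rRNA sequences. The methods state that adenylated messages are favoured, with little bias toward longer poly(A) tails. Per the labels and methods, the authors trimmed reads with Trimmomatic 0.36, aligned them to mm10 (GRCm38) with HISAT2, counted them per gene with HTSeq, and deposited a normalised signal per gene, CPM scaled by TMM separately for HA and input. Divided by the value of 1 read (0.0184 to 0.0370 CPM in the old libraries), 100% of the deposited values came out as whole reads within 1e-06, from which depth was taken. The methods give a filter of 10 CPM, but of the deposited genes only 5642 of 8898 (HA) and 6775 of 10530 (input) reached it in 2 libraries, whereas 8726 and 10480 reached 1 CPM. All value columns were used (0 left out).

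TE was computed as log2((HA CPM + 1)/(input CPM + 1)) minus the pool's median over the 8537 genes in both tables. The mean of the old pools was tested against 0 with limma 3.58.1 (trend) in R 4.3.3, two-sided, with Benjamini-Hochberg adjustment over the 8537 genes. HA and input of a pool are 2 fractions of 1 lysate, which pairs them, although differences between pools in HA and in input were uncorrelated over genes (0.00602). The old-minus-young difference was tested likewise over 4 pools. Alternatives with edgeR 4.0.16 and DESeq2 1.42.0 used the recovered reads, and the fits were tested on simulated data. The methods call the pools biologically independent samples of a single experiment. The limma p-values rest mostly on a spread between pools that is shared among genes of like abundance (median prior of 12.4 degrees of freedom). Tables were made with Python 3.11.15 and pandas 2.3.3.

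The genes and lists were chosen with earlier results of these data known. Named were the 10 highest and 10 lowest by mean TE among genes of at least 10 CPM in the top or bottom 10% in both pools (predicted genes left out), the extreme members of lists, followed-up genes, the 5 highest in HA and the 5 highest input-only genes (1 of them not reported here). The set of at least 300 CPM, and members of lists named for a known role, were chosen after seeing the data. Gene models were from GENCODE M21, which held 8525 of the 8537 genes, and transcription starts from RefSeq.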

Additional observations from a re-analysis of the deposited data

Results flagged for a closer look

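The median TE of 29 proteasome subunits, which degrade ubiquitin-tagged proteins, was on opposite sides of the median gene in the ages, and the difference was not tested. It was -0.21 and -0.26 in the old pools, or -0.22 for the mean of the pools, and 0.31 and 0.36 in the young pools. Centred within groups of like mean CPM, the old medians were 0.02 and -0.35, or 0.14 for the mean of the pools. The side of the median gene thus differed between the pools. The median TE of 129 solute carriers likewise lay at -0.14 and -0.61 in the old pools, or -0.40 for the mean of the pools, and at 0.01 and 0.03 in the young pools, also not tested.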

How the results depend on the processing

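The count of 65 higher and 2 lower genes was 188 and 5 with a pseudocount of 0.1 CPM, 112 and 6 with 5 CPM, 131 and 3 among genes of at least 10 CPM, and 249 and 2 among those of at least 300 CPM. All 65 were kept under the first 3 of these settings. It was 200 and 39 with the 4 pools in 1 fit, 8 and 3 on the deposited scale, 45 and 72 when centred within groups of like mean CPM, 0 and 0 without the abundance trend, 39 and 2 with edgeR's quasi-likelihood test, and 218 and 616 with DESeq2. Without the replicate block, which pairs HA with input of a pool, it was 0 and 1. Leaving out a pool gave 332 to 1128 higher and 258 to 862 lower genes, with the lower numbers without old pool 2 and the higher without old pool 1; the remaining pool was then assumed to vary like the young pools. Genes in the top and bottom 10% in both pools numbered 31 and 29 at 300 CPM.
The median TE of cytosolic ribosomal proteins (-0.75) became 0.13 when centred within groups of like mean CPM, with 0.33 and -0.65 in the single pools. That of M-phase regulators (0.76) was 0.57 with a pseudocount of 5 CPM, 0.25 on the deposited scale, 0.22 within groups of like mean CPM, 1.79 at 300 CPM, and 0.77 to 0.99 when a pool was left out. Old minus young, with 0 calls, gave 2 with the replicate block across ages and 0 to 1 when a pool was left out. The causes of these shifts were not tested. The low rho between the old pools limits single values under 300 CPM (0.284 for the 1315 genes of 100 to 300 CPM).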

Other observations

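A few abundant genes, picked out after their values were seen, differed widely between the 2 old pools. Raver2, for a ribonucleoprotein that binds PTB, had 10.6 and 1349 CPM in input and 7.96 and 15.0 CPM in HA, for a TE of 0.05 and -5.80. Psmd9, for a chaperone of proteasome assembly, had 10.6 and 17.6 CPM in input and 2.68 and 839 CPM in HA, for a TE of -1.22 and 6.10. In each of them 1 of the 4 libraries was far above the other 3, and neither passed limma's test with Benjamini-Hochberg adjustment (adjusted p = 0.402 and 0.542).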
